A study of Mus musculus with 5 samples.

Results

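The cytochrome P450 genes are those gene symbols in the count files that consist of Cyp, a family number, a subfamily letter and a member number, with *Cyp27b1* and *Cyp24a1*, the kidney enzymes of vitamin D hormone handling, left out. The rule used names only and found 91 genes among the 24421 symbols counted. The libraries came from the kidney cortex of 3 *Fnip1* null mice (genotype *Fnip1*-/-, mice 8637, 9210 and 9121) and 2 wildtype mice (genotype *Fnip1*+/+, mice 9055 and 9056), all on the C57BL6J background, and each mouse gave 1 RNAseq library. The table that the submitters assigned to mouse 9210 bears another mouse number in its name, and the assignment was followed. *Fnip1* encodes Folliculin interacting protein 1, and the null allele was made by ENU mutagenesis and is constitutive, so every cell of the kidney and of the body carried it. The tissue was frozen straight after isolation. The labels give no age or sex for single mice, and the text of the study gives only an age range for the RNAseq mice. It reports 3 wildtype mice, where this series holds 2. It calls the control mice heterozygous in one place and wildtype in another. They are called wildtype here, as in the labels.

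Cytochrome P450 enzymes are membrane-bound heme proteins that insert an oxygen atom into fatty acids, sterols, steroid hormones, vitamins and foreign compounds, with electrons passed on by P450 reductase or, in mitochondria, by ferredoxin. Most kidney P450s sit in the proximal tubule, where family 4 enzymes hydroxylate the end of fatty acid chains and the 2c and 2j subfamilies make epoxides from arachidonic acid. These lipid products act on renal blood flow and salt transport. Levels of several of these genes differ between male and female mouse kidneys. *Cyp7b1*, *Cyp2j13*, *Cyp4b1* and *Cyp2e1* are among those known to be higher in males, and this is not a full list of members that differ by sex.

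Between 15799114 and 19132145 reads were counted on genes in each mouse, and 3 counts, below which a level was not told apart from none, were worth 0.158 to 0.186 normalized CPM (CPM, counts scaled to a common library size, here after TMM scaling between libraries). *Fnip1* itself was at 51.7 and 48.6 CPM in wildtype mice 9055 and 9056 and at 21, 16.9 and 16 CPM in null mice 8637, 9210 and 9121 (log2 fold change −1.48 ± 0.136 SE, adjusted p = 0.0313, edgeR's quasi-likelihood test with Benjamini-Hochberg adjustment over 13874 genes, as for every adjusted p-value below unless another test is named). Null mouse 9121 stood apart in sex-linked transcripts. It had 5954 counts of *Xist*, transcribed from the inactive X chromosome, where the other mice had 3 to 24, and 7 counts summed over 4 Y-linked genes, where the others had 2132 to 2543. This is the pattern of a female mouse, and both wildtype mice and null mice 8637 and 9210 shared that of a male. Sex and genotype cannot be told apart in 9121, as no wildtype mouse had its pattern. The log2 fold changes of the members described are therefore also given without 9121. The summed level of 12 proximal tubule markers was 22600 and 26400 CPM in wildtype mice and 22200, 17700 and 16600 CPM in null mice 8637, 9210 and 9121. Of these markers, 9 had negative and 3 positive log2 fold changes (49.5% and 50.5% of all genes tested), with a median of −0.28. At an unadjusted p under 0.05, 2 were higher (13.9% of all genes) and 3 lower (11.2%). The part of these markers in the differences below was not tested. In tissue RNA, fewer tubule cells and less RNA in each cell cannot be told apart.

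Of the 91 P450 genes, 37 had enough counts to be tested, 24 had 0 counts in every mouse, and 30 had counts but fell under the filter of 10 counts in at least 3 of the 5 mice. The genes without any count included *Cyp1a2* and *Cyp7a1*, which act mainly in the liver, 5 of 7 members of the 3a subfamily and 8 of 15 members of the 2c subfamily. The genes of steroid hormone synthesis were at or near 0. *Cyp11b2*, which makes aldosterone, and *Cyp19a1*, the aromatase, had no count, *Cyp21a1* had 1 count in 1 mouse, *Cyp11a1* and *Cyp11b1* had 3 counts at most in any mouse, and *Cyp17a1* had 1 to 6. The largest count among the untested members was 18, for *Cyp2c69* in null mouse 9210. A count of 0 allows up to 3 counts, or up to 0.186 CPM, in a mouse.

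A few genes made up most of the P450 mRNA of wildtype cortex. Per kilobase of exon, the wildtype level was 1650 and 2050 CPM for *Cyp4b1*, which hydroxylates fatty acids and activates some plant toxins. *Cyp2e1*, which oxidizes ethanol and small solvents, was at 956 and 1140 CPM per kilobase, and *Cyp2j5*, an arachidonic acid epoxygenase, at 841 and 925. The wildtype values of *Cyp2e1* and *Cyp2j5* did not overlap, but the gap between them was smaller than the gap between the wildtype mice for *Cyp2e1*. *Cyp2a4*, a steroid hydroxylase, followed at 266 and 275 CPM per kilobase, and *Cyp2j11*, *Cyp7b1*, *Cyp4a31*, *Cyp4a10* and *Cyp2j13* had wildtype means between 110 and 175. *Cyp2j11* and *Cyp7b1*, the neighbours in this order, were 157 and 192 against 156 and 157 CPM per kilobase and were not separated by more than their spread.

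The order of the highest levels was different in null mice 9210 and 9121. In 8637 the 5 highest levels were, as in wildtype, those of *Cyp4b1*, *Cyp2e1*, *Cyp2j5*, *Cyp2a4* and *Cyp2j11*. In 9210 *Cyp2j5* was highest at 536 CPM per kilobase, ahead of *Cyp4b1* at 377, *Cyp2e1* at 233 and *Cyp4a14*, a fatty acid hydroxylase, at 176. In 9121 the highest were *Cyp2j5* at 338, *Cyp4a14* at 181, *Cyp2d26*, a family 2 enzyme, at 160 and *Cyp4a10* at 136, with *Cyp4b1* at 92.2 and *Cyp2e1* at 47.6 CPM per kilobase.

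**Figure D1:**
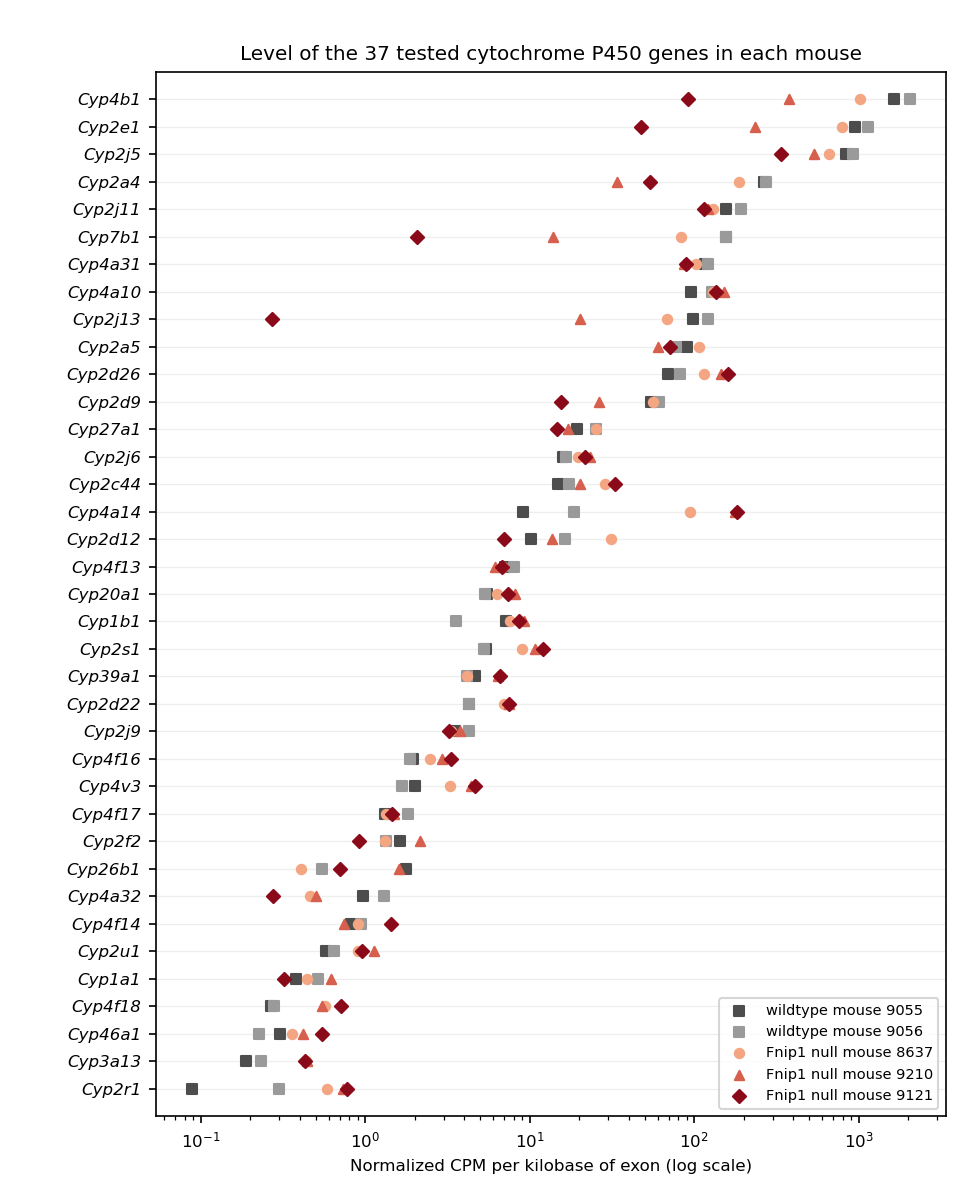
Level of each of the 37 tested P450 genes in each mouse, in normalized CPM per kilobase of exon on a log axis, with genes ordered by their wildtype mean (squares wildtype, other symbols *Fnip1* null). *Cyp4b1*, *Cyp2e1*, *Cyp7b1* and *Cyp2j13* spread widely among the null mice and lie to the left in 9121, whereas the 3 null values of *Cyp4a14* lie to the right of both wildtype values.

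No promoter entry was at hand for *Cyp4a14* or *Cyp7b1*. *Cyp4b1*, *Cyp2e1*, *Cyp2j5* and *Cyp2a4* had the highest wildtype levels. *Cyp2j13* had the lowest fraction of the wildtype level in a null mouse, and *Cyp2d26* had a high level in the opposite direction. For these reasons the sequences just upstream of these last 6 genes are shown. Each is the 250 bases before the RefSeq transcription start on GRCm38.p6, the assembly also called mm10, written 5′ to 3′ on the strand of the gene. RefSeq and GENCODE starts can differ, so the last bases of a window may lie inside a GENCODE transcript. Capitals mark matches on either strand to 4 short motifs: AGGTCA, a nuclear receptor half-site, AGAACA, a steroid hormone receptor half-site, GTTAAT, part of the HNF1 site, and TATAAA, the TATA box. The matches marked do not overlap each other.
Cyp4b1: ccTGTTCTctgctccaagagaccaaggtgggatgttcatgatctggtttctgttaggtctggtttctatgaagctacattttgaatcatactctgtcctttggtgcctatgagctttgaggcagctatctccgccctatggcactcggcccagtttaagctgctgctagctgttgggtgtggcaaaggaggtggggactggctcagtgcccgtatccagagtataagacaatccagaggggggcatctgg
Cyp2e1: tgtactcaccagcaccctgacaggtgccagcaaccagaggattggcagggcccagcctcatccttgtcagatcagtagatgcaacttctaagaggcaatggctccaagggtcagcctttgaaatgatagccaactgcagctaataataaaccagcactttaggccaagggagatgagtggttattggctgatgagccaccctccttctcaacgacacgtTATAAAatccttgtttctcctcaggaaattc
Cyp2j5: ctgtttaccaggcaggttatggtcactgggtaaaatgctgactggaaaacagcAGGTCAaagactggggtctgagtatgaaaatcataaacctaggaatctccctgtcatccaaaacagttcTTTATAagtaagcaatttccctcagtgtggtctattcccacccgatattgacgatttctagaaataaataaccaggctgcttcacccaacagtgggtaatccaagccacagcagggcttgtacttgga
Cyp2j13: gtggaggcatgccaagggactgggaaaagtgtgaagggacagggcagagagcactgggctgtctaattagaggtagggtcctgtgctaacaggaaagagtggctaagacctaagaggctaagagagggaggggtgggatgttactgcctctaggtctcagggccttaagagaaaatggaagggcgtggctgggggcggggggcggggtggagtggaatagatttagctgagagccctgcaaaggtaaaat
Cyp2a4: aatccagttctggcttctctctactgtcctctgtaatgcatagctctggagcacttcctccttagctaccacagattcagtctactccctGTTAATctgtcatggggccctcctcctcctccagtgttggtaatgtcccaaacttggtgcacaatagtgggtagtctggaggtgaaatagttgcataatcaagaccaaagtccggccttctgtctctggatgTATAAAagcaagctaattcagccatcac
Cyp2d26: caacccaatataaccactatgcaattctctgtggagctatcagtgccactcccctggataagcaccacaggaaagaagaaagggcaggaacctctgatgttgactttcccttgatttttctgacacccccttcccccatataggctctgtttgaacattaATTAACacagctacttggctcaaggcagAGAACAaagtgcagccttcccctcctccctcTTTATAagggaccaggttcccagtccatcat

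The windows lie at chr4:115647722-115647971 (minus strand) for *Cyp4b1*, chr7:140763569-140763818 (plus) for *Cyp2e1*, chr4:96664120-96664369 (minus) for *Cyp2j5*, chr4:96077541-96077790 (minus) for *Cyp2j13*, chr7:26306942-26307191 (plus) for *Cyp2a4* and chr15:82794246-82794495 (minus) for *Cyp2d26*. TATAAA stood 31 bases before the start of *Cyp2e1* and 28 bases before that of *Cyp2a4*, and its reverse TTTATA stood 31 bases before that of *Cyp2d26* and 128 bases before that of *Cyp2j5*. *Cyp2j5* held AGGTCA at 197 bases, *Cyp2a4* held GTTAAT at 160 bases, *Cyp4b1* held the reverse of AGAACA at 248 bases, and *Cyp2d26* held AGAACA at 62 bases and the reverse of GTTAAT at 90 bases. None of the 4 motifs was in the *Cyp2j13* window, which says only that these letters are absent there. Among all 27025 promoters of the same length, 13% held TATAAA, 16.2% AGAACA, 13.8% AGGTCA and 6.52% GTTAAT. A promoter entry was at hand for 71 of the 91 members, of which 26 held TATAAA, 15 AGAACA, 17 AGGTCA and 8 GTTAAT, and for 27 of the 37 tested members, of which 9, 4, 2 and 4 did. These matches are a description of letters and not of bound sites.

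Summed over the 91 genes, P450 mRNA was lower in every *Fnip1* null mouse than in both wildtype mice. The sum was 10700 and 12500 CPM in wildtype mice 9055 and 9056 and 8520, 4970 and 3360 CPM in null mice 8637, 9210 and 9121, or 1.02% and 1.14% of all gene counts against 0.839%, 0.53% and 0.367%. With 9121 left aside, both remaining null sums were below both wildtype sums. With 3 mice against 2, an exact permutation test cannot give a p-value below 0.1, so no test was run on the sum. Most of the difference lay in 3 genes. *Cyp4b1*, *Cyp2e1* and *Cyp2j5* held 72.8% and 74.1% of the P450 counts in wildtype mice and 65.2%, 52.5% and 32.8% in the null mice, and the other members together were at 2900 and 3250 CPM in wildtype mice against 2970, 2360 and 2260 CPM. The null value of 8637 for those other members lay between the wildtype values.

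**Figure D2:**
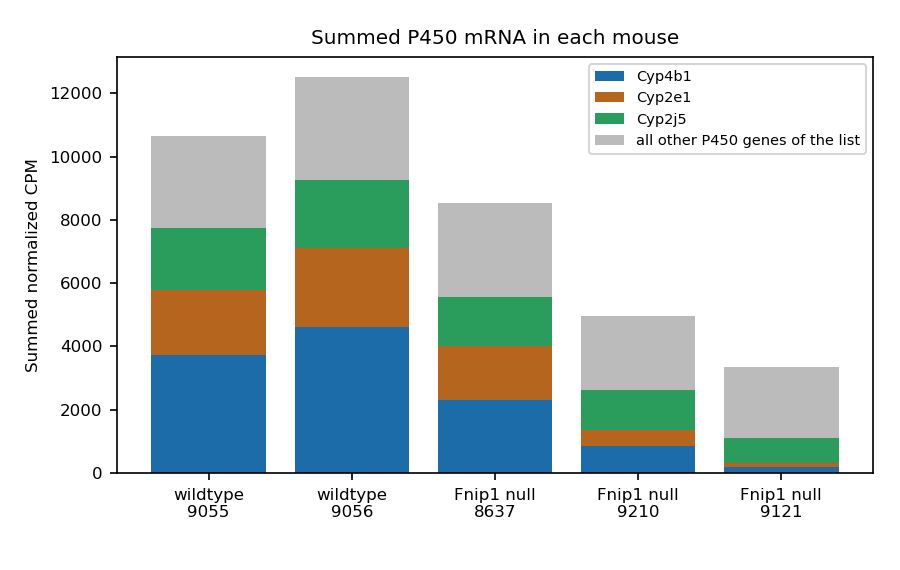
Summed normalized CPM of the 91 P450 genes in each mouse, split into *Cyp4b1*, *Cyp2e1*, *Cyp2j5* and all other members. The sum is 10700 and 12500 CPM in wildtype mice and 3360 CPM in null mouse 9121, and the 3 named genes make up most of that difference.

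Gene by gene, 1 of the 37 tested members passed an FDR of 5% with at least a 2-fold higher level in *Fnip1* null kidney, *Cyp4a14*, where 0.404% of all genes tested did. No member was lower by that rule, where 0.13% of all genes were. At an FDR of 5% without the fold threshold, 3 members were higher (*Cyp4a14*, *Cyp2s1* and *Cyp2d22*, against 0.555% of all genes) and none was lower (0.18%). At an unadjusted p under 0.05, 13 members were higher (13.9% of all genes) and 4 were lower (11.2%). Counted without a test, 5 members were higher at least 2-fold (5.74% of all genes) and 6 were lower at least 2-fold (1.59%). These 6 were *Cyp7b1*, *Cyp4b1*, *Cyp2j13*, *Cyp2a4*, *Cyp2e1* and *Cyp4a32*. The median log2 fold change of the 37 members was 0.22, beside 0.00 for all genes tested, with 20 members positive (50.5% of all genes) and 17 negative (49.5%).

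In 16 members all 3 null mice lay above both wildtype mice, as in 22.9% of all genes tested, and in 10 members they all lay below, as in 23%. In 6 of the 10 (*Cyp4b1*, *Cyp2e1*, *Cyp2j5*, *Cyp2j11*, *Cyp2j13* and *Cyp7b1*) null mouse 8637 had the highest and 9121 the lowest null level. These 6 were 16.2% of the 37 tested members, where 10.8% of all genes tested held both traits. Of the 3186 genes below both wildtype mice, 1501 had this order. In 7 of the 16 (*Cyp4a14*, *Cyp2s1*, *Cyp2d26*, *Cyp4v3*, *Cyp2r1*, *Cyp46a1* and *Cyp4f16*) 9121 had the highest and 8637 the lowest. These 7 were 18.9% of the 37 tested members, where 8.35% of all genes tested held both traits. Of the 3179 genes above both wildtype mice, 1159 had this order. This arrangement of the null mice was chosen after their values were seen.

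**Figure D3:**
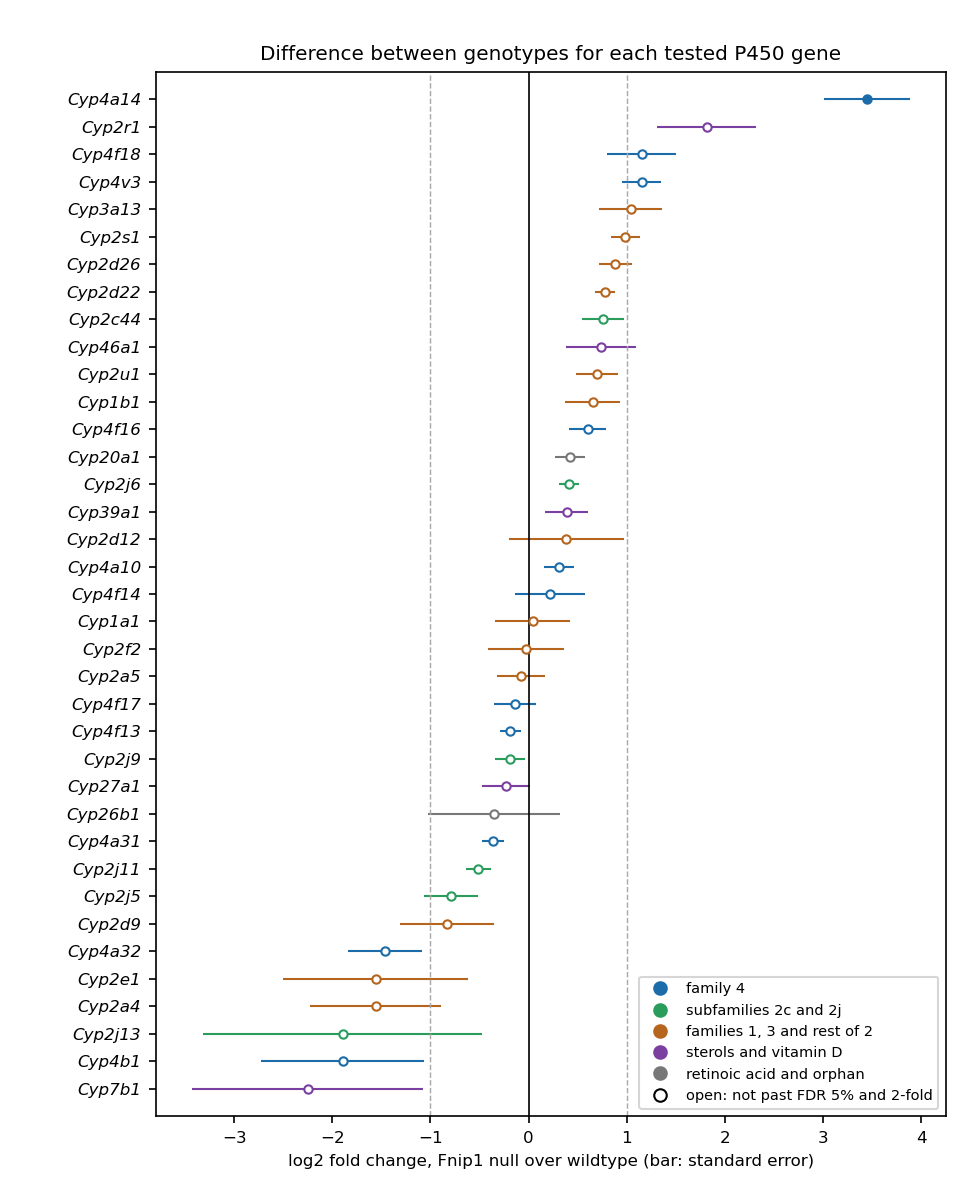
Log2 fold change (*Fnip1* null over wildtype) of each tested P450 gene with its standard error, coloured by role, with dashed lines at 2-fold and a filled point for the gene past an FDR of 5% and 2-fold. *Cyp4a14* stands at 3.45, and *Cyp2j13*, *Cyp7b1*, *Cyp2e1* and *Cyp4b1* have the longest error bars.

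Family 4, the fatty acid hydroxylases, had 17 members, of which 11 were tested. The only call was *Cyp4a14*, a gene induced by the fatty acid receptor PPAR alpha in many tissues, which rose 10.9-fold. It was at 23.6 and 48 CPM in wildtype mice and at 244, 458 and 470 CPM in null mice 8637, 9210 and 9121, so the groups did not overlap and the lowest null value was far above the higher wildtype value. The log2 fold change was 3.45 ± 0.439 (SE, adjusted p = 0.0395), and without 9121 it was 3.29 (adjusted p = 0.0220). The part of sex in the *Cyp4a14* values was not tested. Without null mouse 9210 (3.32, adjusted p = 0.169) or without either wildtype mouse, where 1 wildtype mouse was left and was assumed to vary like the null mice (3.02 and 4.05, adjusted p = 0.212 and 0.506), the quasi-likelihood test called no gene of all those tested, *Cyp4a14* included. Without 9210, *Cyp4a14* was still called in edgeR's exact test (adjusted p = 2.95e-08) and DESeq2 (adjusted p = 5.72e-14).

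*Cyp4a14* lies at chr4:115486200-115496142 beside 4 other members of family 4, which differed between the groups in other ways. *Cyp4a10* (chr4:115518264-115533649), another omega-hydroxylase, was at 202 and 271 CPM in wildtype and at 273, 320 and 286 CPM in null mice (log2 fold change 0.31 ± 0.155, adjusted p = 0.265, and 0.33 without 9121). *Cyp4a31* (chr4:115563649-115579015) was at 293 and 305 CPM against 255, 217 and 225 CPM (−0.37 ± 0.111, adjusted p = 0.126, and −0.34 without 9121). The null mice thus lay above both wildtype mice for *Cyp4a10* and below both for *Cyp4a31*, and neither gene passed the test.

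*Cyp4a32* (chr4:115600969-115621602) was a low gene, at 24 and 35 counts in wildtype and 12, 13 and 8 counts in null mice, with a log2 fold change of −1.46 ± 0.374 (adjusted p = 0.102, and −1.23 without 9121). In edgeR's exact test, which does not allow for uncertainty in each gene's dispersion in the same way, its adjusted p was 0.0175, and without 9121 0.0780. Of the 50-base words of its transcripts, 43.8% also occur in other genes, mostly *Cyp4a10*, and 29.8% of those of *Cyp4a10* do. Read pairs with both ends in such stretches can map to more than 1 place and were then not counted, so the levels of both genes are uncertain. The share of such words is not the share of reads lost.

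*Cyp4b1* (chr4:115624725-115647723), the most abundant P450 gene of wildtype cortex, was at 3720 and 4630 CPM in wildtype mice and at 2310, 851 and 208 CPM in null mice 8637, 9210 and 9121. All null values were below both wildtype values, but they spanned a wide range, from 55.3% to 4.98% of the wildtype mean. The log2 fold change of −1.90 ± 0.830 did not pass the test (adjusted p = 0.218), nor did it without 9121 (−1.40, adjusted p = 0.146). Without 8637 it was −2.97 (adjusted p = 0.0281). Null mice 8637 and 9210, whose *Xist* and Y-linked counts were like those of the wildtype mice, were at 55.3% and 20.4% of the wildtype *Cyp4b1* mean. The part of sex in the *Cyp4b1* values was not tested.

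Among the other members of family 4, *Cyp4v3*, counterpart of a human fatty acid hydroxylase mutated in a crystalline retinal dystrophy, was at 7.64 and 6.40 CPM in wildtype and at 12.4, 16.6 and 17.7 CPM in null mice. The groups were apart (log2 fold change 1.15 ± 0.202, adjusted p = 0.0646, and 1.05 without 9121), and the gene passed edgeR's exact test (adjusted p = 2.65e-04) and DESeq2 (adjusted p = 3.00e-04). The 4f subfamily, which inactivates leukotrienes, had 9 members and 5 tested. Their log2 fold changes ran from −0.19 for *Cyp4f13* (−0.20 without 9121) to 1.15 for *Cyp4f18* (adjusted p = 0.128, and 1.02 without 9121). *Cyp4f18*, a gene of neutrophils, was at 8 and 9 counts in wildtype and 18, 17 and 25 counts in null mice. Of 9 tested leukocyte markers, 8 had a positive log2 fold change (50.5% of all genes tested), with a median of 1.35. At an unadjusted p under 0.05, 7 were higher (13.9% of all genes) and 1 was lower (11.2%). In edgeR's exact test at 2-fold, 5 were called higher (3.06%). The summed level of all 10 was 123 and 101 CPM in wildtype and 99.5, 125 and 219 CPM in null mice, and the part of these markers in the *Cyp4f18* values was not tested. *Cyp4a12a*, a neighbouring omega-hydroxylase that is higher in male kidney and whose symbol falls outside the naming rule, was at 100 and 164 CPM in wildtype and at 40.2, 7.78 and 4.70 CPM in null mice (−2.92 ± 0.826, adjusted p = 0.113; edgeR's exact test 0.0117, and −2.46 with 0.00527 without 9121).

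**Figure D4:**
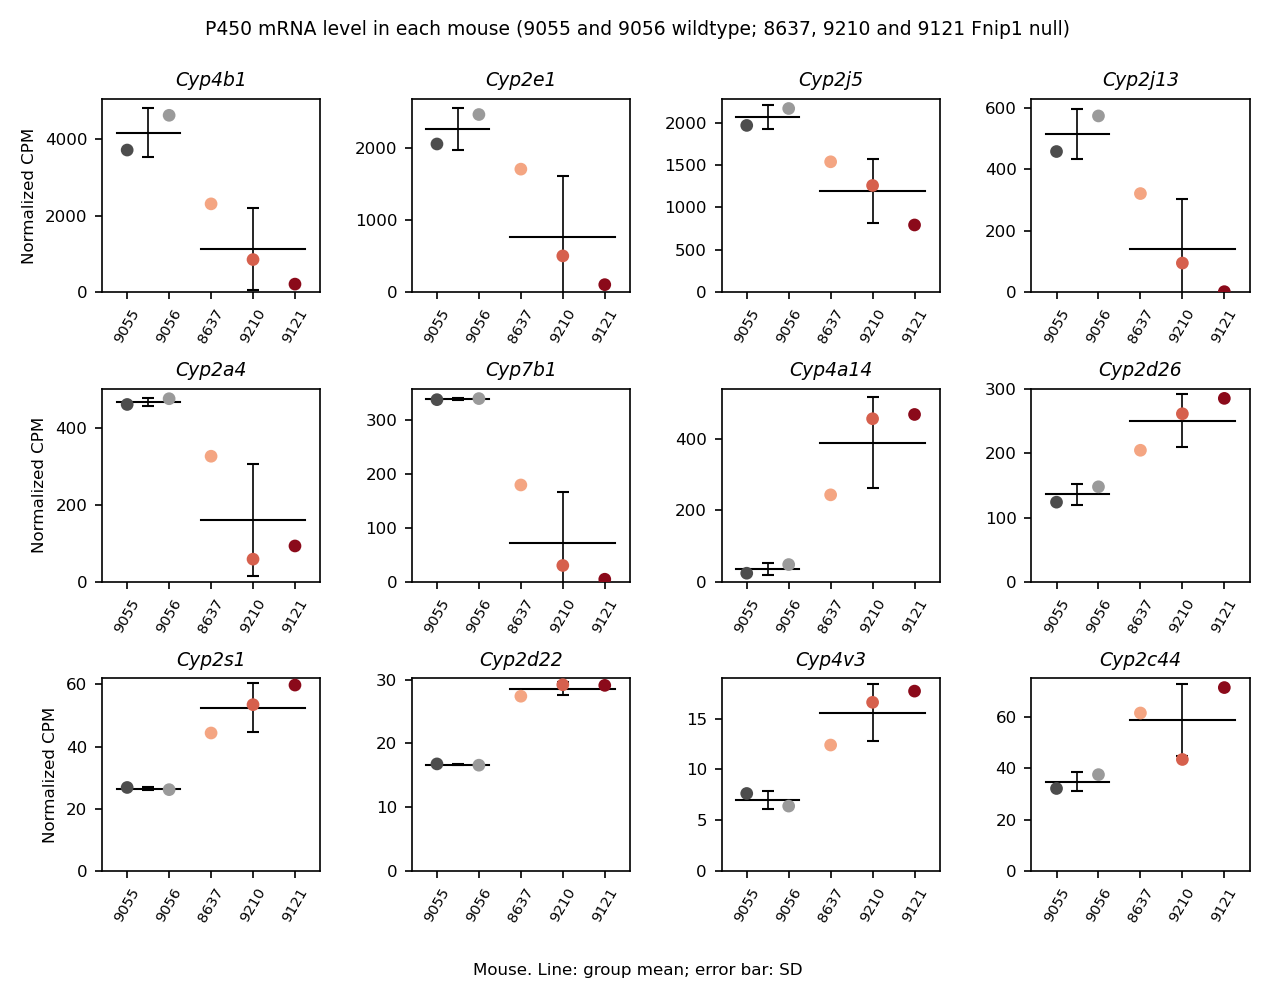
Normalized CPM of 12 P450 genes in each mouse (grey wildtype, red shades *Fnip1* null), with the group mean as a line and SD as bar, cut at 0. The null mice sit below both wildtype mice for *Cyp4b1*, *Cyp2e1*, *Cyp2j5*, *Cyp2j13*, *Cyp2a4* and *Cyp7b1* and above both for the other 6 genes.

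Subfamilies 2c and 2j, which include the arachidonic acid epoxygenases, had 22 members and 6 tested, 5 of them in subfamily 2j. No member passed in either direction in edgeR's quasi-likelihood or exact test at 2-fold, and at an unadjusted p under 0.05 2 were higher and 2 lower, where 13.9% and 11.2% of all genes tested were. *Cyp2j5* (chr4:96628773-96664154), the most abundant epoxygenase gene, was at 1970 and 2170 CPM in wildtype and at 1540, 1260 and 793 CPM in null mice (log2 fold change −0.79 ± 0.276, adjusted p = 0.154). The groups were apart, with 8637 nearest to wildtype at 74.6% of the wildtype mean and 9121 farthest at 38.3%. The difference was −0.56 without 9121 (adjusted p = 0.171) and −1.01 without 8637 (adjusted p = 0.0346).

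*Cyp2j13* (chr4:96027534-96077546), a kidney member of the subfamily, had the largest standard error of all tested members. It was at 458 and 574 CPM in wildtype, at 321 and 94.5 CPM in 8637 and 9210, and at 1.27 CPM, or 24 counts, in 9121. The level in 9121 was 0.245% of the wildtype mean, and the log2 fold change of −1.90 ± 1.42 (adjusted p = 0.439) was −1.31 without 9121 (adjusted p = 0.193) and −3.43 without 8637 (adjusted p = 0.127). Only 0.127% of its 50-base words were shared with other genes.

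The other tested members of subfamily 2j differed less. *Cyp2j11* was at 301 and 368 CPM in wildtype and at 251, 233 and 218 CPM in null mice (−0.51 ± 0.127, adjusted p = 0.0978, and −0.47 without 9121), and passed an FDR of 5% in edgeR's exact test (adjusted p = 0.0407) and DESeq2 (adjusted p = 0.00988). *Cyp2j6* was higher, at 57.5 and 59.4 CPM against 70.5, 83.8 and 78.7 CPM (0.41 ± 0.102, adjusted p = 0.0984, DESeq2 0.0367, and 0.40 without 9121). *Cyp2j9* overlapped between the groups (−0.187, and −0.145 without 9121). *Cyp2c44*, the only tested member of subfamily 2c and the main epoxygenase of that subfamily in mouse kidney, was at 32.2 and 37.6 CPM in wildtype and at 61.6, 43.5 and 71.5 CPM in null mice (0.75 ± 0.214, adjusted p = 0.115, and 0.59 without 9121). It passed an FDR of 5% in edgeR's exact test (adjusted p = 0.0281) and DESeq2 (adjusted p = 0.0229). Members of these subfamilies thus lay on both sides of wildtype.

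The other P450s of foreign compounds, families 1 and 3 and the rest of family 2, had 35 members and 13 tested. *Cyp2s1*, an enzyme of lining epithelia induced by the aryl hydrocarbon receptor, was at 26.9 and 26.2 CPM in wildtype and at 44.4, 53.5 and 59.8 CPM in null mice. It rose by 0.99 ± 0.144 on the log2 scale (adjusted p = 0.0496), just under 2-fold, and by 0.88 without 9121 (adjusted p = 0.0340). Its adjusted p was 0.195 without 9210, 0.212 and 0.522 without a wildtype mouse and 0.0521 with library sizes only. *Cyp2d22*, regarded as the mouse gene nearest to the human drug-metabolizing enzyme CYP2D6, had the tightest groups, at 16.8 and 16.6 CPM in wildtype and at 27.4, 29.2 and 29.1 CPM in null mice. It rose by 0.78 ± 0.101 (adjusted p = 0.0399) and by 0.76 without 9121 (adjusted p = 0.0421). Its adjusted p was 0.189 without 9210 and 0.212 and 0.506 without a wildtype mouse.

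*Cyp2d26*, at 124 and 148 CPM in wildtype and 205, 262 and 286 CPM in null mice, missed the threshold (0.88 ± 0.171, adjusted p = 0.0709, and 0.78 without 9121) with the groups apart. It passed an FDR of 5% without 8637 (1.02, adjusted p = 0.00695). *Cyp3a13*, the tested member of the 3a subfamily, was at 9 and 12 counts in wildtype and 22, 22 and 24 counts in null mice (1.04 ± 0.323, adjusted p = 0.129, and 1.05 without 9121).

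*Cyp2e1* (chr7:140763739-140774987) was at 2060 and 2470 CPM in wildtype and at 1710, 503 and 103 CPM in null mice 8637, 9210 and 9121. The null mice again ran from near wildtype, at 75.2% of the wildtype mean, to 4.53%, and the log2 fold change of −1.56 ± 0.944 did not pass (adjusted p = 0.344). It was −1.04 without 9121 (adjusted p = 0.294) and −2.90 without 8637 (adjusted p = 0.0379).

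*Cyp2a4* (chr7:26307169-26315088) was at 462 and 477 CPM in wildtype and at 327, 58.6 and 93 CPM in null mice (−1.56 ± 0.665, adjusted p = 0.209, −1.28 without 9121, and −2.63 with adjusted p = 0.00481 without 8637). Here 9210 and not 9121 was lowest. Its near copy *Cyp2a5*, a coumarin hydroxylase, was at 187 and 161 CPM in wildtype and at 221, 125 and 148 CPM in null mice, with overlapping groups (−0.08, and −0.01 without 9121). Of the 50-base words of *Cyp2a4*, 38% occur in other genes, mostly *Cyp2a5*, and 37% of those of *Cyp2a5* do, so the split of reads between the pair is uncertain.

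*Cyp2d9*, a testosterone hydroxylase that is higher in male mice, was at 145 and 163 CPM in wildtype and at 150, 69.6 and 41.3 CPM in null mice, and null mouse 8637 lay within the wildtype range (−0.83 ± 0.479, adjusted p = 0.323). Its difference was −0.49 without 9121 (adjusted p = 0.427) and −1.47 without 8637 (adjusted p = 0.0146). The targets of the aryl hydrocarbon receptor in family 1 did not separate the groups by a call. *Cyp1b1* was at 42.1 and 20.8 CPM in wildtype and at 44.3, 53.5 and 50.4 CPM in null mice (0.65 ± 0.282, adjusted p = 0.212, and 0.64 without 9121). *Cyp1a1* was low, at 17 and 25 counts in wildtype and 17 to 29 counts in null mice (0.04 ± 0.386, adjusted p = 0.960, and 0.25 without 9121), and the sign of its difference changed with the mice included.

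Of the 7 genes of cholesterol, bile acid and vitamin D precursor metabolism, 5 were tested. *Cyp7b1* (chr3:18071950-18243338), which hydroxylates oxysterols and steroids, had the most negative log2 fold change of all tested members. It was at 337 and 339 CPM in wildtype mice and at 179, 29.9 and 4.43 CPM in null mice 8637, 9210 and 9121. The wildtype mice were nearly equal, whereas the null mice ran from 52.9% to 1.31% of the wildtype mean, and the log2 fold change of −2.25 ± 1.18 did not pass the test (adjusted p = 0.281). It was −1.70 without 9121 (adjusted p = 0.212) and −4.31 without 8637 (adjusted p = 0.0180).

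*Cyp2r1*, which carries out the hydroxylation of vitamin D in the liver that precedes its activation in the kidney, was at 3 and 11 counts in wildtype and 21, 26 and 31 counts in null mice (1.82 ± 0.506, adjusted p = 0.111, and 1.73 without 9121). Its adjusted p was 0.0102 in edgeR's exact test, 0.0943 in that test without 9210 and 0.0643 in DESeq2. Its log2 fold change was 1.22 without wildtype mouse 9055 and 2.94 without 9056. *Cyp27a1*, the mitochondrial sterol hydroxylase, was 48.5 ± 9.33 CPM (SD, n = 2) in wildtype and 41.4 ± 12.1 CPM (SD, n = 3) in null mice, with overlapping groups (−0.23, and −0.07 without 9121). *Cyp39a1* and *Cyp46a1*, hydroxylases of brain oxysterols and cholesterol, had log2 fold changes of 0.39 and 0.74 (adjusted p = 0.319 and 0.249), and of 0.27 and 0.55 without 9121. In the group of retinoic acid breakdown and orphan enzymes, *Cyp26b1* was at 9.44 and 2.92 CPM in wildtype and at 2.18, 8.55 and 3.75 CPM in null mice, and the spread within each genotype was larger than the difference between them (−0.35, and −0.20 without 9121). *Cyp20a1*, an orphan, had a log2 fold change of 0.42 (adjusted p = 0.157), and of 0.41 without 9121.

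Leaving out null mouse 8637, the one nearest to wildtype in most of the lower genes, gave the largest change in the number of calls. The null mice left were then 9210 and 9121, which differed in their sex-linked transcripts. In the 4 remaining mice 6 members were lower by the same rule (*Cyp7b1*, *Cyp4b1*, *Cyp2e1*, *Cyp2a4*, *Cyp2d9* and *Cyp2j5*), where 1.97% of all genes were, and 4 were higher (*Cyp4a14*, *Cyp4v3*, *Cyp2s1* and *Cyp2d26*), where 4.53% were. Leaving out 9210, or either wildtype mouse, gave no call among members or among all genes tested (0% in each direction). Leaving out 9121 gave 1 member higher (*Cyp4a14*, 0.649% of all genes) and none lower (0.339%). In edgeR's exact test on all 5 mice, 3 members were higher (*Cyp4a14*, *Cyp4v3* and *Cyp2r1*, 3.06% of all genes) and 1 was lower (*Cyp4a32*, 1.05%), and in DESeq2 2 were higher (*Cyp4a14* and *Cyp4v3*, 2.64%) and none lower (0.872%). The likelihood ratio test called the same 3 members higher as the exact test (3.44% of all genes) and the same 1 lower (1.09%).

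Other scalings and filters left the calls nearly as they were. *Cyp4a14* was the 1 member called higher, with none lower, with library sizes only (0.483% and 0.0721% of all genes), with RLE size factors (0.375% and 0.13%) and when a gene needed 1 CPM or more in 3 mice (0.47% and 0.129%). With no filter on low counts, 2 of 67 members were higher, *Cyp4a14* and *Cyp4v3* (0.605%), and none was lower (0.207%). Leaving out null mice in the other tests, a choice made after seeing the data, also gave the most calls without 8637. There, the exact test called 5 members higher (6.45%) and 7 lower (2.26%), and DESeq2 called 4 higher (4.19%) and 6 lower (1.95%). Without 9210, the exact test called 2 higher (1.46%) and none lower (0.396%), and DESeq2 2 higher (1.16%) and none lower (0.44%). Without 9121, the exact test called 3 higher (2.37%) and 1 lower, *Cyp4b1* (0.98%), and DESeq2 2 higher (1.51%) and none lower (0.649%).

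**Figure D5:**
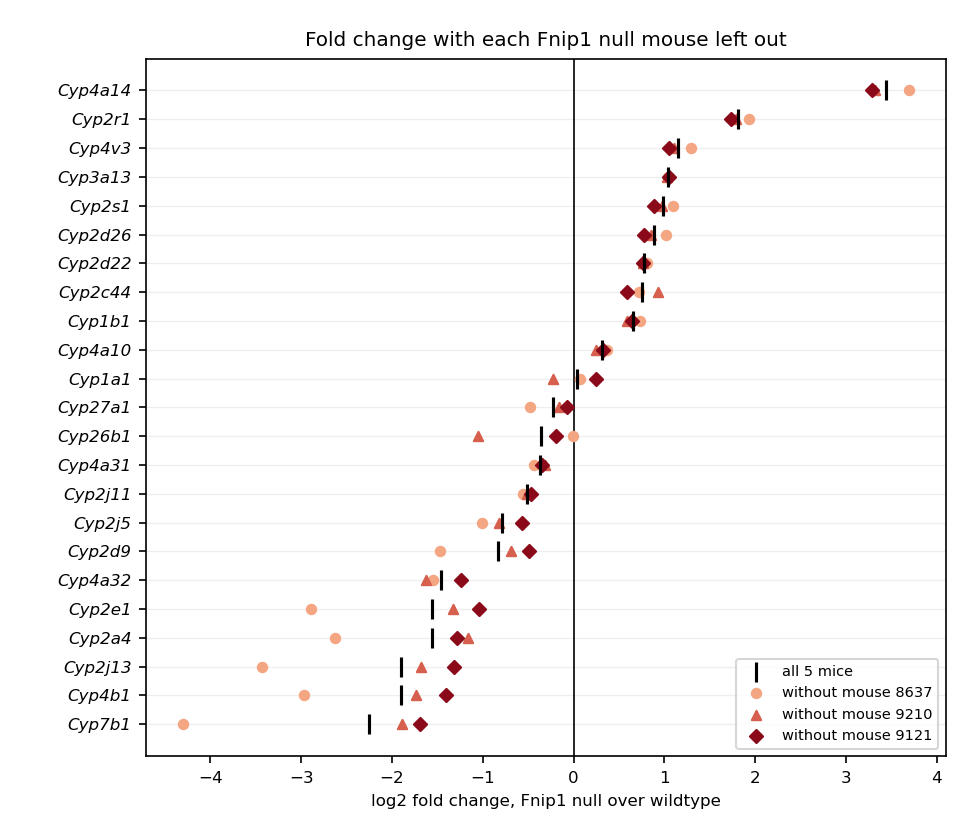
Log2 fold change of the 23 named and tested P450 genes with all 5 mice (bars) and with each *Fnip1* null mouse left out. Without 8637 the values of *Cyp7b1*, *Cyp2j13*, *Cyp4b1*, *Cyp2e1* and *Cyp2a4* move to the left, with *Cyp7b1* at −4.31, whereas those of *Cyp4a14*, *Cyp2d22* and *Cyp3a13* stay near their values in all mice.

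The partners of the P450 enzymes were read from short lists, and no gene of these lists passed an FDR of 5% with a 2-fold difference in edgeR's quasi-likelihood test. Of 9 electron donors, 6 had a lower and 3 a higher mean in null mice, with a median log2 fold change of −0.21. *Por*, the reductase that serves all microsomal P450s, was at 490 and 515 CPM in wildtype and at 401, 318 and 335 CPM in null mice (−0.52 ± 0.135, adjusted p = 0.104, and −0.49 without 9121). *Cyb5a*, cytochrome b5, was at 804 and 921 CPM against 597, 488 and 323 CPM (−0.88 ± 0.253, adjusted p = 0.117, and −0.67 without 9121). Both were apart between the groups. At an unadjusted p under 0.05, 3 donors were lower (11.2% of all genes tested) and none was higher (13.9%). Of 3 tested epoxide hydrolases, *Ephx2*, the soluble enzyme that opens the epoxides made from arachidonic acid, was at 625 and 730 CPM in wildtype and at 440, 318 and 210 CPM in null mice (−1.07 ± 0.291, adjusted p = 0.108, edgeR's exact test 0.0139, and −0.84 without 9121). The microsomal *Ephx1* differed in the other direction (0.70 ± 0.203, adjusted p = 0.117, and 0.60 without 9121).

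Because *Cyp4a14* is a known target of PPAR alpha, 19 tested targets of this receptor outside the P450 family were set beside it. Of these, 12 had negative and 7 positive log2 fold changes, with a median of −0.19. At an unadjusted p under 0.05, 2 were higher (13.9% of all genes tested) and 7 lower (11.2%). At 2-fold, edgeR's exact test called 2 higher (3.06% of all genes) and 1 lower (1.05%). *Fabp1*, a fatty acid binding protein, was at 0.559 and 0.857 CPM in wildtype and at 1.71, 65.8 and 91 CPM in null mice (6.20 ± 1.76, adjusted p = 0.114). In the other direction, *Ehhadh*, an enzyme of peroxisomal fatty acid oxidation, and *Cd36*, a fatty acid transporter, had log2 fold changes of −0.83 and −1.72 (adjusted p = 0.0800 and 0.105). The list therefore held genes on both sides, and *Ppara* itself was at 266 and 266 CPM in wildtype and at 286, 200 and 189 CPM in null mice.

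Of 4 tested targets of the aryl hydrocarbon receptor outside the family, 3 had a lower and 1 a higher mean in null mice. At an unadjusted p under 0.05, 2 were lower (11.2% of all genes tested) and 1 higher (13.9%). Of 10 tested receptors that control P450 genes, 6 had a lower and 4 a higher mean in null mice. Their log2 fold changes ran from −0.72 to 0.71, and at an unadjusted p under 0.05 1 was higher and 1 lower. *Esr1*, the estrogen receptor, was at 24.8 and 26.1 CPM in wildtype and at 18.6, 15.3 and 12.3 CPM in null mice (−0.72 ± 0.179, adjusted p = 0.0975).

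Markers of other tissues were read for the same mice. Adipocyte markers summed to 52.9 and 56.8 CPM in wildtype and to 73, 391 and 196 CPM in null mice, highest in 9210. Hepatocyte markers summed to 74.8 and 70.4 CPM against 100, 76.4 and 48.6 CPM, and the liver genes *Cyp1a2* and *Cyp7a1* were at 0 in every mouse. Adrenal cortex markers summed to 25.4 and 23 CPM against 30.3, 43.8 and 38.1 CPM, and 2 of the 8 (*Nr5a1* and *Hsd3b6*) were at 0 in every mouse. Of 15 clock genes, 8 had positive and 7 negative log2 fold changes, from −0.83 to 1.09, with a median of 0.02. At an unadjusted p under 0.05, 3 were higher (13.9% of all genes tested) and none was lower (11.2%). In edgeR's exact test at 2-fold, 1 was called higher (3.06%) and none lower (1.05%). A median over genes on both sides does not show whether the time of day was alike. The part of these lists in the P450 values was not tested.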

How the data were processed

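RNA from cortical kidney tissue of 5 mice was sequenced as 1 library for each mouse. The authors aligned reads to the mouse genome (mm10) and counted them per gene symbol, and the deposited values are these counts, whole numbers without normalization. The submitters' processing notes name bcl2fastq 1.8.2, TopHat2 2.1.0 and HTSeq 0.6.1. Lines of the files that name no gene were left out of library sizes: reads on no feature (9.91% to 10.8% of all counts in the file), ambiguous reads (0.741% to 0.803%) and reads aligned to more than 1 place (28.3% to 31.4%). Counts therefore hold reads that map to 1 place only, which lowers genes with near-identical copies.

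A gene needed 10 counts or more in at least 3 mice. The 13874 genes kept were tested with edgeR 4.0.16 (quasi-likelihood test, TMM normalization, limma 3.58.1, R 4.3.3) and adjusted by Benjamini-Hochberg over all of them, and a call needed an FDR of 5% and a 2-fold difference. The design had no covariates. SEs of log2 fold changes come from the F statistics. Levels per kilobase used the union of exons in GENCODE M21 (GRCm38), matched by symbol, with *Cyp2c44* listed under its RefSeq synonym *Cyp2c23*. Coordinates are from the same annotation, and promoters are from RefSeq (GRCm38.p6). Shared 50-base words were counted over GENCODE transcripts.

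The genes described with their values were the called members, the 8 highest and 8 lowest fold changes among members with a mean of at least 1 CPM, the 10 highest levels and a list of kidney P450s. Other members are named to account for the family, and were chosen after their values were seen. The members and all lists were chosen with earlier results of these data known. Mice are separate animals. The alternatives were the exact test and the likelihood ratio test of edgeR, DESeq2 1.42.0, other normalizations, filters and thresholds, and leaving out each mouse. Leaving out null mice under the exact test and DESeq2 was added after seeing the data. The steps were tested on simulated data. Values of some listed genes are not reported here.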

Additional observations from a re-analysis of the deposited data

How the results depend on the processing

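The number of members called depended on the test and on single mice. With all 5 mice, the quasi-likelihood test called 1 member higher (0.404% of all genes) and 0 lower (0.13%). The number higher was 3 with edgeR's exact test (3.06%), 3 with the likelihood ratio test (3.44%) and 2 with DESeq2 (2.64%). It was 2 with no filter on low counts (0.605%) and 3 at an FDR of 5% alone (0.555%). The number lower was 1 with the exact test (1.05%) and 1 with the likelihood ratio test (1.09%). Leaving out 1 null mouse at a time in the quasi-likelihood test, the number higher ran from 0 to 4 (0% to 4.53% of all genes). The number lower ran from 0 to 6 (0% to 1.97%), with no gene called among all those tested without 9210. In the exact test these numbers ran from 2 to 5 (1.46% to 6.45% of all genes) and from 0 to 7 (0.396% to 2.26%). In DESeq2 they ran from 2 to 4 (1.16% to 4.19%) and from 0 to 6 (0.44% to 1.95%). The highest came without null mouse 8637 in each test. With the scaling to library size only, with RLE factors, and when a gene needed 1 CPM or more in 3 mice, *Cyp4a14* was the 1 member called. The median log2 fold change of tested members was positive in all 18 settings, from 0.07 to 0.39. Its highest value came with the scaling to library size only, which moved the median of all genes to 0.17.

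Of 413 values of the 23 named and tested genes, 5 changed sign. *Cyp1a1* was −0.16 without wildtype mouse 9055 and, without null mouse 9210, −0.23 in the quasi-likelihood test, −0.23 in the exact test and −0.23 in DESeq2, and *Cyp26b1* was 0.72 without 9055. Leaving out 1 mouse at a time, *Cyp1a1* ran from −0.23 to 0.28 and *Cyp26b1* from −1.05 to 0.72. A further 3 were the lost calls of *Cyp4a14*, 43 passed an FDR of 5% with a 2-fold difference where the value with all mice had not, and 362 kept their direction and their side of that joint threshold. The cause of these changes was not tested.

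No paired analysis was possible because no mouse number occurs in both genotypes. With 2 wildtype mice, the spread of that group rests on 1 difference. Age and sex are not in the labels, and neither was a term of the model.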
